A study of Mus musculus with 4 samples.

Results

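Collagens are the structural proteins of the extracellular matrix, and each collagen chain is encoded by its own gene. The collagen genes of mouse pancreatic islet cells were taken as every deposited gene whose symbol has the form Col, a number, a and a number. This gave 44 of the 38457 mouse genes. The islets were those of mice labelled Sin3A mutant or WT, with 2 libraries per genotype described as biological replicates. The labels name neither the mutant allele nor the cells it acts in, nor the strain or age of the mice. Single cells were captured with inDrop, a droplet method that tags each cell's RNA with a barcode and reads messenger RNAs near their 3′ ends. Each title ends in a number that both genotypes share: the libraries with the smaller number are called mutant A and WT A below, and those with the larger one mutant B and WT B. The labels do not say what the number stands for. Runs of 4 values are in the order mutant A, mutant B, WT A, WT B.

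Each collagen molecule is a triple helix of chains, which come from 1 gene or from several. Fibrillar collagens give connective tissue its tensile strength, type IV collagens form the sheet-like network of basement membranes, and type VI collagens form beaded filaments at the surface of cells. In the islet a basement membrane surrounds the capillaries, and beta cells, the insulin producers, are known to lie against it.

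After filters on depth and doublets 6526 cells remained, 1144, 2382, 1207 and 1793 per library, with median counts per cell of 7605, 4448.5, 9997 and 5306. The libraries held 9282495, 12236110, 12835199 and 10350699 counts, and 118739 counts of kept cells fell on collagen genes. Libraries of a pair shared at most 2.24% of their barcodes. Sin3a, the targeted gene, stood at 0.541, 0.213, 0.275 and 0.435 counts per 10000 counts over all cells, from 498, 258, 347 and 446 counts. Mutant A was thus above WT A, while mutant B was below WT B, so the libraries are named by their labels only. Levels below are counts per 10000 counts of a library's cells of one class. Counts of 3′ tags do not depend on gene length, but how well a 3′ end is captured differs between genes, so levels are compared between classes and libraries rather than between genes.

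Cells were grouped without the collagen genes, and clusters were called fibroblast-like and so on from markers. The fibroblast-like cells, 6, 265, 61 and 79 per library, were named from 9 genes that include Itm2a, Ptn and the small proteoglycans Dcn and Lum. Itm2a stood at 22.0, 33.9, 19.0 and 36.7 in them, against 2.64, 7.49, 2.54 and 5.44 in pericyte-like cells, the cells that wrap capillaries. The 9 markers summed to between 101 and 129 in fibroblast-like cells with all 9 detected, and to between 8.49 and 19.9 in pericyte-like cells. The other classes used here were 302 pericyte-like, 55 contractile (led by Acta2), 349 endothelial-like, 84 Schwann-like (the glia of peripheral nerves), 318 ductal-like, 2976 beta-like, 1072 alpha-like, 492 delta-like and 190 PP-like cells. Mutant A held 6 fibroblast-like cells and no contractile cell, and such sums of under 10 cells are in neither means nor fits.

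The promoters of a few members that recur below are printed for reference. No comparison between classes or libraries used these sequences. They are RefSeq windows on GRCm38.p6, 250 bases before to 50 bases after the start site, each written 5′ to 3′ on the gene's own strand. Capitals mark CCAAT boxes read on either strand (CCAAT or ATTGG). Col4a1 (chr8:11312777-11313076, minus strand) and Col4a2 (chr8:11312555-11312854, plus strand) have starts 21 bases apart on opposite strands. By these positions each gene is transcribed through the start of the other. Their windows share 78 bases.
Col4a1: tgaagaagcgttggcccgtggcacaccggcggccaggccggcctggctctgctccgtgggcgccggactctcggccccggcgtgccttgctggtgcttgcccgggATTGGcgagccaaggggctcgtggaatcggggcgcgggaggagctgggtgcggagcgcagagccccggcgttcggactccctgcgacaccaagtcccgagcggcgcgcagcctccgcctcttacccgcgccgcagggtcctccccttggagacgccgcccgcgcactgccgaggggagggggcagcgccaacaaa
Col4a2: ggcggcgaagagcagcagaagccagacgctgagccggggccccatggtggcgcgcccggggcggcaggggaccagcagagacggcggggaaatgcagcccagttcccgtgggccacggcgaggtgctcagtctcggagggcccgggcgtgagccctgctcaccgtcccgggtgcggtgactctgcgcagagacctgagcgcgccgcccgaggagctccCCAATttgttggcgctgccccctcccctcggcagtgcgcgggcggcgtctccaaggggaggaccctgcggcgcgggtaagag
Col1a2 (chr6:4505368-4505667, plus strand) and Col3a1 (chr1:45311288-45311587, plus strand) were the members with the most counts in fibroblast-like cells, and Col6a3 (chr1:90843922-90844221, minus strand) was the one with the most counts in beta-like cells.
Col1a2: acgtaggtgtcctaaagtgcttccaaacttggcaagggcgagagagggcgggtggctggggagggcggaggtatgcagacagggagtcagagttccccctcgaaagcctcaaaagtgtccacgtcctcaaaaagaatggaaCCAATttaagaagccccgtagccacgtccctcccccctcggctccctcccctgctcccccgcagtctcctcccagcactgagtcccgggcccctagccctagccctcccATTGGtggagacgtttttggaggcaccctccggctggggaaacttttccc
Col3a1: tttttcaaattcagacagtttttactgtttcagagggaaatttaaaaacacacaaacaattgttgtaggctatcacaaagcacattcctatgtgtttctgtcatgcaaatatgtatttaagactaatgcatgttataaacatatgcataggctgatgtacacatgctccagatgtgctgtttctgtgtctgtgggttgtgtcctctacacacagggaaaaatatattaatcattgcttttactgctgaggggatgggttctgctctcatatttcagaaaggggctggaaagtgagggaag
Col6a3: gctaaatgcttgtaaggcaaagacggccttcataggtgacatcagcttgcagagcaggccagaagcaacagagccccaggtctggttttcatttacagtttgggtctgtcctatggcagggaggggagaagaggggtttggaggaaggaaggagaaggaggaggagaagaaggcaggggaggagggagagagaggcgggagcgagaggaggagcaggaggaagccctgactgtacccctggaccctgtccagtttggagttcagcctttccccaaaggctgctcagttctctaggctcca
The Col1a2 window held 2 CCAAT boxes, the Col4a1 and Col4a2 windows 1 each, and the Col3a1 and Col6a3 windows none. The Col1a2 window also held 2 GGGCGG elements, the Col4a1 window 1 and the Col4a2 window 3, on either strand and with no overlap with CCAAT, and Col3a1 held 1 TATAAA. Windows were found for 35 of the 44 members, 38 in all, since some genes have several starts. CCAAT lay in 13 of the 38 and in 37.4% of all 32851 promoter windows of the table. GGGCGG lay in 23 of the 38 and in 35.7% of all windows, and TATAAA in 5 and in 13.6%.

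Collagen genes made up 3.66%, 4.43%, 4.49% and 4.36% of all counts in fibroblast-like cells, the first of these from only 6 cells. The mean over the other 3 libraries was 4.43% ± 0.06 (SD, n = 3). The contractile cells held 2.13% in mutant B and 2.15% in WT A. Pericyte-like cells held 1.15% ± 0.12 and endothelial-like cells 0.964% ± 0.097 (SD, n = 4 each). No library of these classes overlapped with a library of fibroblast-like cells. Schwann-like cells varied most, with 0.658%, 2.07%, 1.32% and 1.41%. Ductal-like cells held 0.128% ± 0.035, and the beta-like, alpha-like, delta-like and PP-like cells between 0.029% and 0.041% on average (n = 4). Over all cells of a library the share was 0.123%, 0.429%, 0.210% and 0.282%, in the same order from low to high as the number of fibroblast-like cells.

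**Figure D1:**
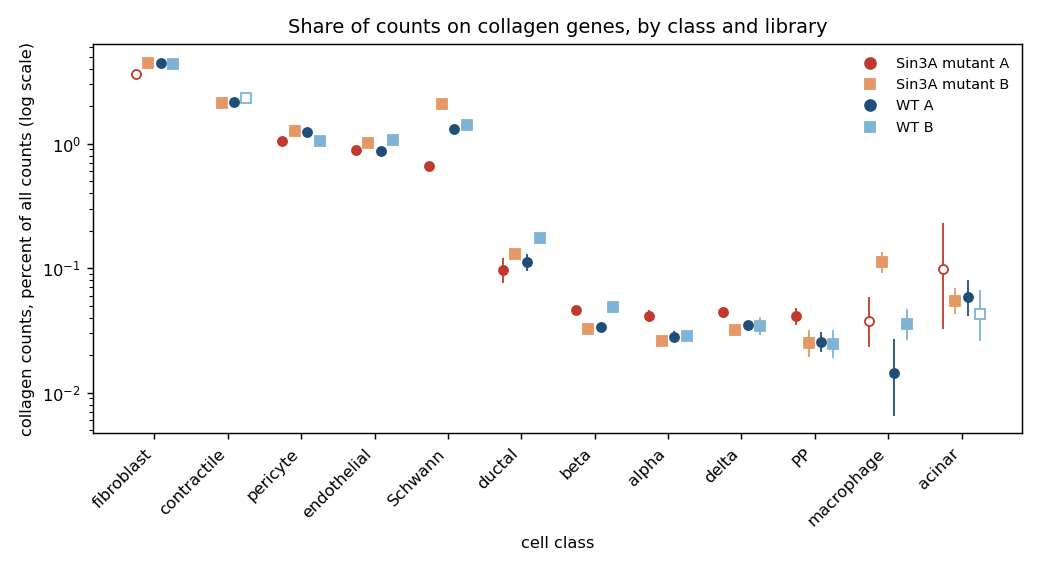
Share of all counts that fell on the 44 collagen genes (percent, log axis) in each cell class, with 1 point per library, libraries labelled mutant left of those labelled WT. Bars are exact 95% binomial intervals of counting error, and open symbols are sums of under 10 cells. Fibroblast-like cells lie near 4.4% and the beta-like, alpha-like, delta-like and PP-like cells between 0.0247% and 0.0491%.

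The families were used in different proportions. Of the collagen counts of fibroblast-like cells 78.6% fell on fibrillar genes, 12.1% on beaded-filament genes and 4.32% on basement membrane genes. In pericyte-like cells the fibrillar genes took 43.8% and the basement membrane genes 42.1%. In endothelial-like cells the basement membrane genes took 66.2% and the multiplexins, 2 collagens of basement membrane zones, 21.1%. Schwann-like cells gave 60.0% to fibrillar and 12.8% to fibril-associated genes. Ductal-like cells split between basement membrane genes (36.5%) and fibrillar genes (35.6%), and beta-like cells gave most to beaded-filament genes, with 37.6%. Of the 44 members 35 had at least 100 counts over all cells, and the other 9 had 24 to 96 counts.

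**Figure D2:**
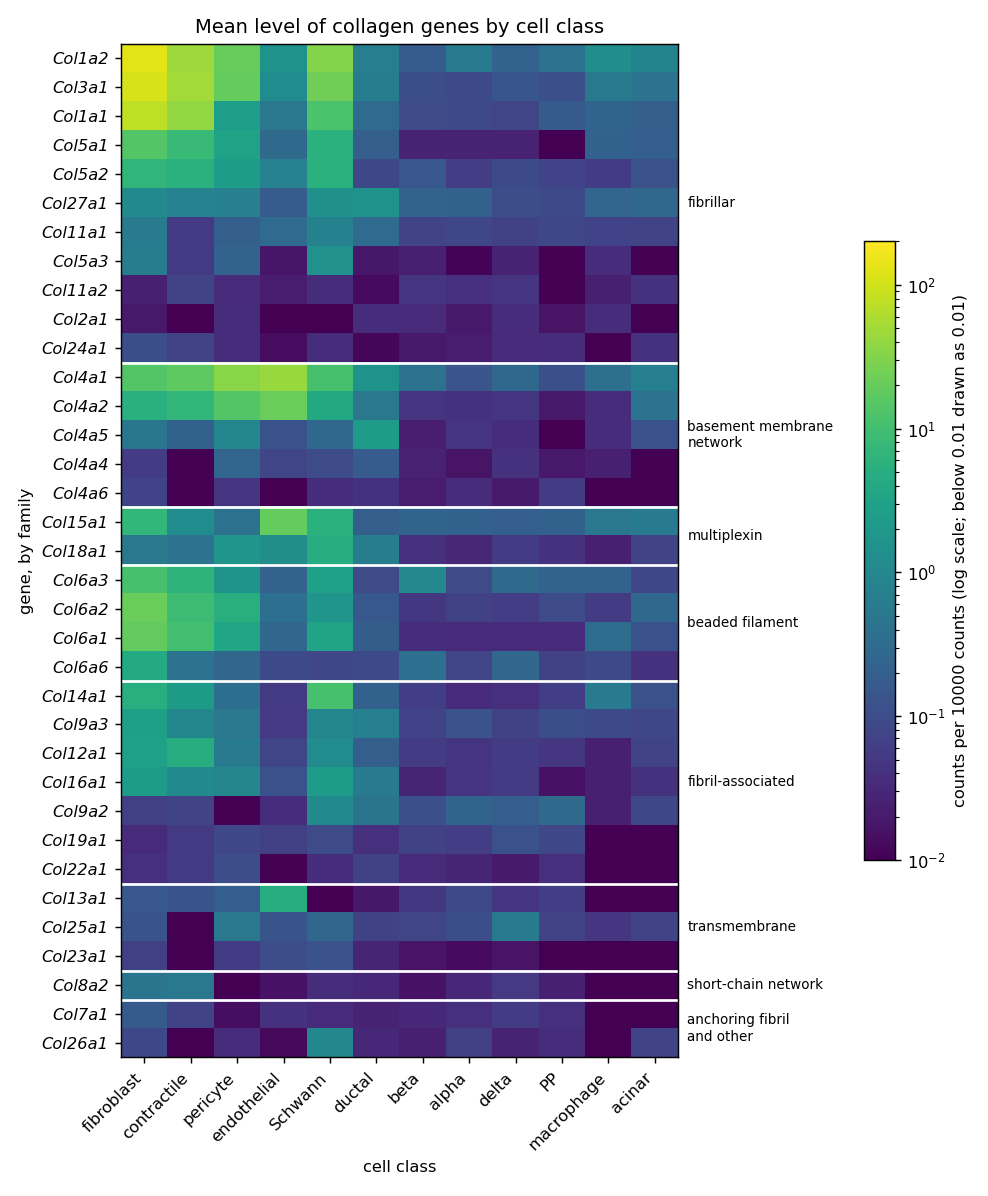
Mean level of each collagen gene with at least 100 counts (counts per 10000, log color scale) by cell class, genes grouped by family. Col1a1, Col1a2, Col3a1, Col6a1 and Col6a2 are highest in fibroblast-like cells, Col4a1, Col4a2, Col15a1 and Col13a1 in endothelial-like cells, and Col6a3 is higher in beta-like cells than in the other endocrine classes.

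The chains of the main fibrils were highest in fibroblast-like cells. Col1a1, a chain of type I collagen, stood at 79.8, 67.8, 104 and 62.6 in fibroblast-like cells, against 0.459, 4.03, 3.81 and 1.87 in pericyte-like cells. The lowest fibroblast-like value was far above the highest pericyte-like one. Its partner Col1a2 stood at 58.4, 168, 92.4 and 136 in fibroblast-like cells, against 13.4, 27.7, 15.7 and 23.1 in pericyte-like cells. Col3a1, the single chain of type III collagen of distensible tissues such as skin and vessels, stood at 88.0, 97.3, 116 and 122 in fibroblast-like cells, against 13.7, 23.1, 21.3 and 19.5 in pericyte-like cells. All 3 thus separated the classes in every library, Col1a1 by the widest margin. Col5a1 and Col5a2, chains of the type V collagen found within type I fibrils, averaged 14.1 ± 2.29 and 6.77 ± 0.637 in fibroblast-like cells (SD, n = 3).

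Between fibroblast-like and pericyte-like cells 18 of the 28 members that could be tested were higher and 4 lower (p under 0.05 after Benjamini-Hochberg adjustment, in edgeR's quasi-likelihood test). Of all 10521 genes tested 5.49% were higher and 5.5% lower. The median log2 difference of the members was 2.15, or 1.87 with genes at 0 in one class set to their bound, and that of all genes was 0.02. By log2 difference (± SE), Col1a1 was higher by 4.94 ± 0.46 (edgeR adjusted p = 4.73e-11), Col1a2 by 2.50 ± 0.37, Col3a1 by 2.45 ± 0.39 and Col5a1 by 2.17 ± 0.25. The type VI chains Col6a1, Col6a2 and Col6a3 were higher by 2.36 ± 0.31, 2.14 ± 0.34 and 2.75 ± 0.34. Col6a6, a further type VI chain, was higher by 3.94 ± 0.46, and by 3.30 without WT B. Col14a1, a fibril-associated collagen, was higher by 3.55 ± 0.42, and the multiplexin Col15a1 by 4.31 ± 0.62, or 5.49 without mutant B. Col8a2, a short-chain network collagen, had 63 counts in fibroblast-like and 0 in pericyte-like cells, at least 12.4-fold higher against a floor of 3 counts over the group, or 8.14-fold without WT A.

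The 4 members lower in fibroblast-like cells were Col18a1, Col4a1, Col4a2 and the transmembrane collagen Col25a1. Col18a1, the multiplexin whose end fragment is endostatin, fell by 1.79 on the log2 scale (SE 0.35, edgeR adjusted p = 0.000222). Col4a1 was lower with a log2 difference of -1.16 ± 0.28 and Col4a2 with -1.20 ± 0.28. The call of Col4a2 was lost without mutant B, at -1.0, and that of Col4a1 without a library term, at -1.21 (edgeR adjusted p = 0.101 and 0.0766). Col25a1, at -1.93 ± 0.56, lost its call without mutant B (-0.91) and without WT A (-1.91), and stood at -3.08 without WT B. It also lost its call without the library term, at -2.02 (edgeR adjusted p = 0.0708). Without mutant B the number of lower members was 2. As single libraries were left out, the number of higher members was 15 to 17. Fibroblast-like cells of mutant A took no part in these fits.

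**Figure D3:**
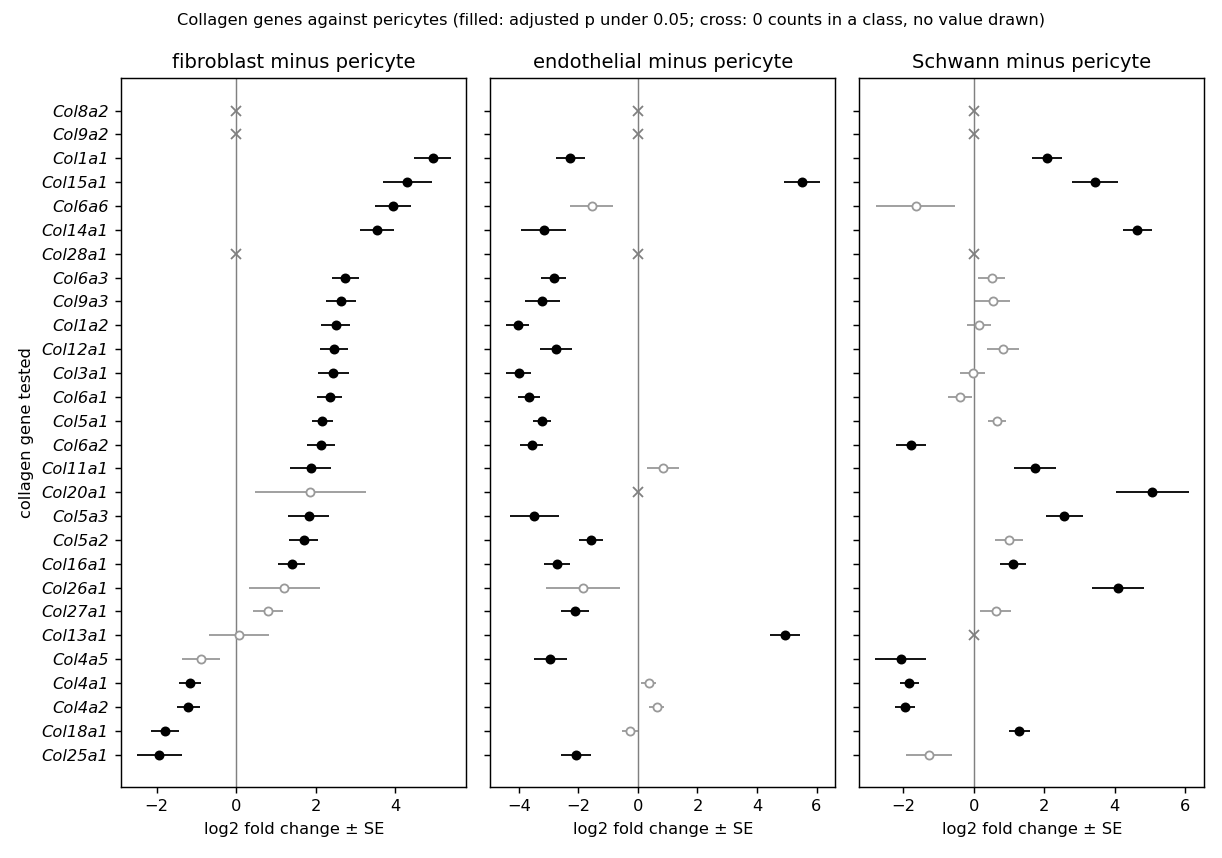
Log2 differences with SE from edgeR for the 28 collagen genes tested in 3 contrasts, fibroblast-like, endothelial-like and Schwann-like cells over pericyte-like cells. Filled points passed an adjusted p of 0.05, and crosses are genes at 0 counts in one class, drawn without a value. The calls in fibroblast-like cells, 18 higher and 4 lower, include Col8a2 and Col9a2, which are drawn as crosses.

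Within the fibroblast-like cells the members did not run in parallel. The largest cluster, of 184 cells, had Col1a2 at 122, Col6a6 at 6.45 and Col14a1 at 4.95. A cluster of 97 cells had Col1a2 at 253 and Col14a1 at 12.3, with Col6a6 at 0.842. A small cluster of 23 cells had Col1a1 at 167 and Col6a3 at 24.1, with Col4a1 at 1.41 and Col6a6 at 0.0791. Of the clusters of 184 and 97 cells, the one with more Col6a6 thus had less Col1a2. The cells with the most Col6a3 had almost no Col6a6. A cluster of 41 cells, 35 of them from WT A, had Col1a2 at 56.6. Mutant B gave 127 of the 184 cells and 82 of the 97, and WT A gave 13 of the 23. Cluster and library are thus partly the same thing in all of these.

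Endothelial-like cells were lower than pericyte-like cells in most of the members tested. Of 28 members 2 were higher and 16 lower, beside 11.9% and 9.83% of all genes, with a median log2 difference of -2.20 (-2.27 with bounds) against 0.05 over all genes. The 2 higher ones were Col15a1 and Col13a1. Col15a1 stood at 18.0, 22.1, 17.4 and 18.5 in endothelial-like cells, against 0.459, 0.896, 0.173 and 0.134 in pericyte-like cells, a log2 difference of 5.50 ± 0.60, or 6.48 without mutant B. Col13a1, a transmembrane collagen, averaged 4.77 ± 1.25 in endothelial-like cells (SD, n = 4), a log2 difference of 4.94 ± 0.49, or 5.61 without WT A (edgeR adjusted p = 2.34e-10 with all libraries). After each cell was thinned to 2000 counts, 48.6% of endothelial-like cells had a Col13a1 count, against 1.10% of beta-like cells. Median depths were 4824.5 and 8177 counts.

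The basement membrane pair was not called between the 2 vascular classes. Col4a1 stood at 37.0, 44.5, 36.2 and 56.0 in endothelial-like cells, against 36.6, 32.1, 38.6 and 31.9 in pericyte-like cells. Col4a2 stood at 25.1, 14.6, 23.0 and 20.6 in endothelial-like cells, against 19.2, 8.96, 18.3 and 10.7 in pericyte-like cells. Within a library Col4a2 was higher in endothelial-like cells in all 4, and Col4a1 in 3 of 4. The log2 difference was 0.36 ± 0.25 for Col4a1 (edgeR adjusted p = 0.349) and 0.62 ± 0.24 for Col4a2 (edgeR adjusted p = 0.062). Col4a2 was called without mutant A (0.73, edgeR adjusted p = 0.0216), without WT A (0.78, edgeR adjusted p = 0.0228) and with no filter on low counts (0.72, edgeR adjusted p = 0.00757). It was also called with collagens kept in the clustering (0.66) and at resolution 2 (0.69), but not by DESeq2 (0.60, adjusted p = 0.253), without mutant B or without WT B. Among the lower members Col1a2 was at -4.04 ± 0.39 (-4.83 without mutant B), Col3a1 at -4.00 ± 0.41, Col6a1 at -3.67 ± 0.37 and Col6a2 at -3.57 ± 0.39 (-4.56 without mutant B).

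The Col1a2 level of endothelial-like cells was 0.317, 4.41, 0.699 and 0.729, so mutant B stood apart by several fold. Col1a1 behaved likewise, at 0.0865, 1.66, 0.2 and 0.081. Mutant B was also the library with the most fibroblast-like cells, 265 of 2382. Its ratio of Col1a1 to Col1a2 counts was 0.376 in endothelial-like cells and 0.402 in fibroblast-like cells. In mutant A, WT A and WT B that ratio was 0.273, 0.286 and 0.111 in endothelial-like cells, from 3, 6 and 4 Col1a1 counts. In fibroblast-like cells of these libraries it was 1.37, 1.13 and 0.462. The summed fibroblast markers in endothelial-like cells were 8.42, 19.3, 17.6 and 15.8, with all 9 markers detected. The part of RNA from fibroblasts in these values was not tested.

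Against endothelial-like cells, fibroblast-like cells were higher in 19 members and lower in 4, beside 11.5% and 13.6% of all genes. The median log2 difference was 4.5, or 3.70 with bounds, against -0.03 over all genes. The lower ones were Col13a1 (-4.87 ± 0.50), Col4a2 (-1.83 ± 0.28), Col18a1 (-1.53 ± 0.34) and Col4a1 (-1.52 ± 0.28). The largest differences upward were Col1a1 at 7.22 ± 0.52, Col14a1 at 6.71 ± 0.55, Col1a2 at 6.54 ± 0.44 and Col3a1 at 6.45 ± 0.46. These 4 varied with the libraries: without mutant B they stood at 9.23, 5.92, 7.41 and 7.06, and Col14a1 reached 9.46 without WT A. The calls of the members named here held with each library left out. The number of higher members was then 16 to 18.

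Schwann-like cells were also set against pericyte-like cells. Of 28 members 11 were higher and 4 lower than in pericyte-like cells, beside 6.49% and 8.53% of all genes, with a median log2 difference of 0.75 (0.66 with bounds) against -0.16. Of the 11 higher members 7 (63.6%) were also higher in fibroblast-like cells, and Col18a1, Col20a1, Col26a1 and Col28a1 were not. Of all 28 members tested 18 were higher in fibroblast-like cells, so the overlap was near the share over all members. Both contrasts use the same pericyte-like sums. The filter on low counts could keep a rare member through a single class in which it was high. Col28a1 and Col20a1 were tested with 54 and 64 counts over all cells, while Col19a1, with 324, was not. With no filter 11 of 44 members were higher and 4 lower, beside 650 and 882 of 32388 genes. Col14a1 stood at 4.27, 16.8, 10.5 and 13.2 in Schwann-like cells, against 0.115, 0.768, 0.173 and 0.401 in pericyte-like cells, a log2 difference of 4.64 ± 0.42 (edgeR adjusted p = 1.28e-11). It was also higher on average than in fibroblast-like cells, where it was 5.07 ± 2.81 (SD, n = 3), a pair of classes that was not tested. Col9a2, a chain of the fibril-associated type IX collagen of cartilage, had 18, 2, 10 and 5 counts in Schwann-like and 0 in pericyte-like cells, at least 34.0-fold higher. With each library left out, an alternative chosen after seeing the data, the bound lay between 19.0-fold without mutant A and 28.2-fold without WT B. Col28a1, known from the basement membranes around peripheral nerve glia, had 14 counts against 0, at least 13.6-fold higher, or 8.16-fold without mutant B and 8.45-fold without WT B. Its Schwann-like level was 0.329, 0.574, 0.273 and 0.723, present in every library.

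The rarer Schwann-like members rested on few counts. Col26a1 had 31 counts and Col20a1 15, with log2 differences of 4.10 ± 0.74 and 5.07 ± 1.04. Col26a1 ranged from 3.10 without WT A to 5.95 without mutant B, and Col20a1 from 4.48 without WT B to 8.44 without mutant B. Both kept their calls. Col15a1 was higher by 3.45 ± 0.66, between 2.85 without WT B and 4.49 without mutant B, and Col5a3 by 2.58 ± 0.52, or 3.29 without WT A. Col18a1, higher by 1.30 ± 0.30, stood at 3.40, 4.59, 6.55 and 4.92 in Schwann-like cells, against 2.24, 1.25, 2.71 and 0.892 in pericyte-like cells. Col4a2 and Col4a1 were lower, at -1.94 ± 0.29 and -1.82 ± 0.27. Col16a1 (1.12 ± 0.37) lost its call without mutant B, WT A or WT B, and Col4a5 (-2.08 ± 0.73) without mutant A, WT A or WT B. With all libraries, both lost their calls without the library term. Col4a5 was also not called by DESeq2 (DESeq2 adjusted p = 0.0618) or with DESeq2's size factors (edgeR adjusted p = 0.0789). In the same 84 cells the fibroblast markers summed to between 6.57 and 19.5 with Dpt at 0, and Dcn stood at 0, 0.860, 0 and 0. The Schwann markers summed to between 42.9 and 99.8, and the beta cell markers to between 12.3 and 1304. The part of other cells' RNA in these sums was not tested.

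Ductal-like cells, the epithelium of the pancreatic ducts, were set against beta-like cells. Of 28 members 17 were higher and 2 lower, beside 19.9% and 23.5% of all genes, with a median log2 difference of 1.51 against -0.06. Col4a5, a type IV chain known from the basement membrane of kidney filters, stood at 1.22, 3.07, 2.54 and 2.72 in ductal-like cells, against 0.0405, 0.0169, 0.00642 and 0.0276 in beta-like cells. Its log2 difference was 6.31 ± 0.44 (edgeR adjusted p = 1.19e-15), or 7.06 without mutant A. Thinned to 2000 counts, 40.4% of ductal-like cells had a Col4a5 count, against 0.682% of beta-like cells. Median depths were 4418 and 8177 counts. Ductal-like cells were also the class with the highest Col4a5, above the 0.941 ± 0.305 of pericyte-like cells (SD, n = 4).

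Among the other members higher in ductal-like cells were Col16a1 (4.07 ± 0.38), Col18a1 (3.70 ± 0.34), Col4a2 (3.26 ± 0.37), Col27a1 (2.68 ± 0.32) and Col9a3 (2.56 ± 0.38). The 3′ end of Col9a3 overlaps exons of Tcfl5 on the other strand, and the strand setting of the counting is not stated in the labels. Col27a1, a fibrillar collagen known from cartilage, stood at 0.977, 1.94, 1.65 and 1.86 in ductal-like cells, a class in which it took 12.9% of the collagen counts. Several fibroblast collagens were higher as well, but leaned on WT B. Without that library Col3a1 stood at 1.01 and lost its call (edgeR adjusted p = 0.117), against 2.45 with all libraries. Col5a1 stood at 1.97 without it and 2.55 with it, and Col6a1 at 1.64 and 2.31. Without WT B 11 members in all were higher. The summed fibroblast markers of ductal-like cells were 2.08, 1.58, 1.59 and 2.37, with all 9 detected, the highest in WT B, and their part in these values was not tested.

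Col6a3, an alpha chain of type VI collagen, was the member with the most counts in beta-like cells. Col6a3 stood at 0.736, 0.751, 1.07 and 1.64 in beta-like cells, from 454, 444, 829 and 835 counts. In alpha-like cells, the glucagon producers, it stood at 0.0793, 0.0493, 0.133 and 0.129. The lowest beta-like value lay above the highest alpha-like one. The level in delta-like cells was 0.319, 0.325, 0.460 and 0.117, below beta-like cells in each library, and in PP-like cells 0.613, 0.0389, 0.162 and 0.0808. Alpha-like over beta-like cells gave a log2 difference of -3.46 ± 0.36 (edgeR adjusted p = 4.58e-10), and ductal-like over beta-like cells -3.30 ± 0.47. Thinned to 2000 counts, 17.6% of beta-like cells had a Col6a3 count, against 3.17% of macrophage-like cells. Median depths were 8177 and 4315 counts. The unthinned shares were 41.6% and 6.85%. Col4a1 was likewise higher in beta-like cells of every library than in the other endocrine classes. It stood at 0.559, 0.255, 0.306 and 0.528 in beta-like cells. Delta-like cells came next in mutant A, mutant B, WT A and WT B alike, at 0.396, 0.196, 0.241 and 0.258, while PP-like cells ranged from 0 in mutant B to 0.24 in mutant A. Alpha-like cells held 0.172, 0.104, 0.142 and 0.138.

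Col6a1 and Col6a2, which code for chains of the same molecule, were not called between beta-like cells and alpha-like ones. Their log2 differences, alpha-like over beta-like, were -0.45 ± 0.53 and 0.22 ± 0.49. Col6a1 stood at 0.0195, 0.0456, 0.0244 and 0.0551 in beta-like cells. The ratio of Col6a3 to Col6a1 counts was 37.8, 16.4, 43.6 and 29.8 in beta-like cells, against 0.350, 0.530, 0.691 and 0.602 in fibroblast-like cells. It was 0.528, 0.436, 0.476 and 0.557 in pericyte-like cells. The other endocrine classes also had more Col6a3 than Col6a1. Over the pooled libraries their ratio was 10 in delta-like, 8.25 in PP-like and 3.5 in alpha-like cells, against 29.8 in beta-like cells. The first of these 3 ratios rested on 15 Col6a1 counts, the others on 4 and 18. Col6a6 was higher in beta-like cells together with Col6a3, at 0.284, 0.309, 0.373 and 0.496 in beta-like cells, against 0.106, 0.0493, 0.125 and 0.0364 in alpha-like cells, a log2 difference of -2.48 ± 0.41 for alpha-like over beta-like. Col6a6 was also lower in ductal-like than in beta-like cells, at -2.63 ± 0.58, between -1.91 without mutant B and -4.30 without WT B. Thinned, 6.55% of beta-like cells had a Col6a6 count, against 1.59% of macrophage-like cells.

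**Figure D4:**
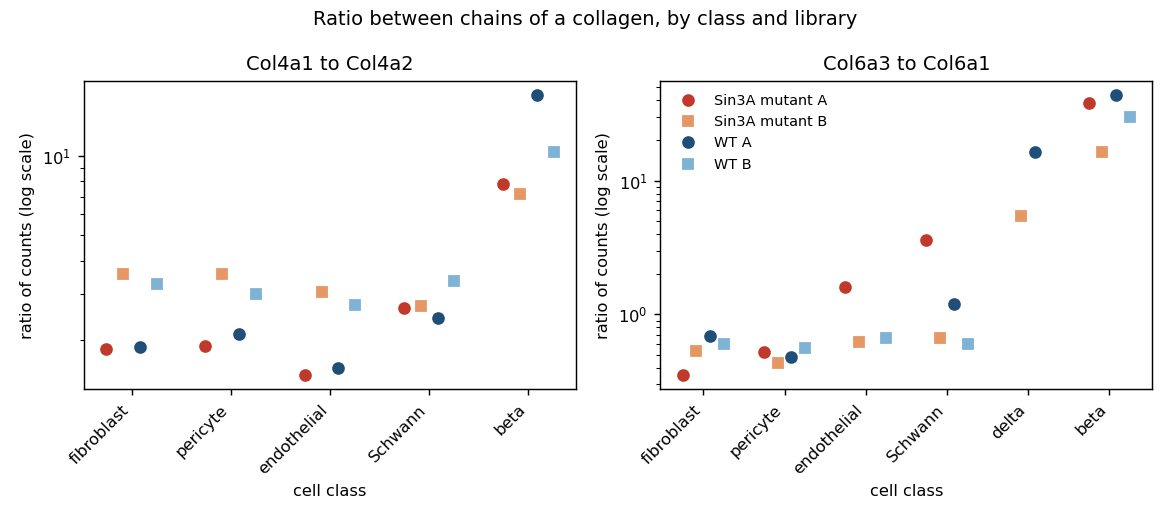
Ratios of counts of Col4a1 over Col4a2 and of Col6a3 over Col6a1 (log axes) per cell class, 1 point per library with at least 5 counts of both chains, libraries labelled mutant left of those labelled WT. Col6a3 over Col6a1 lies between 16.4 and 43.6 in beta-like cells and below 1 in fibroblast-like and pericyte-like cells. In the 2 delta-like libraries drawn it is 5.43 and 16.4. Col4a1 over Col4a2 is higher in the B than in the A libraries of fibroblast-like, pericyte-like and endothelial-like cells.

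Beta-like cells fell into clusters that were each mostly from 1 library, apart from a cycling cluster and a shallow one. In the cycling cluster of 511 cells, led by proliferation genes such as Mki67 and Ccnb1, Col6a3 stood at 0.435, 0.273, 0.524 and 0.978, lower in each library than over all its beta-like cells. In the clusters mostly of mutant A, mutant B, WT A and WT B it stood at 0.816, 0.894, 1.23 and 1.77.

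Between alpha-like and beta-like cells 2 members were higher in alpha-like cells and 4 lower, beside 8.17% and 11.4% of all genes, with a median log2 difference of -0.24 against 0.00. Beside Col6a3 and Col6a6 the lower ones were Col4a1 (-1.67 ± 0.31) and Col5a2 (-1.41 ± 0.50). The higher ones were Col1a2 (1.59 ± 0.38) and Col9a2 (0.92 ± 0.27). Col5a2 lost its call without mutant A (-0.80), mutant B (-1.49) or WT A (-1.40), and Col9a2 without mutant A (0.82) or WT A (0.99). Without the library term none of Col1a2, Col9a2 and Col5a2 was called, and DESeq2 did not call Col5a2 (DESeq2 adjusted p = 0.0722).

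Col1a2 in alpha-like cells stood at 0.317, 0.936, 0.550 and 0.477, against 0.109, 0.309, 0.0835 and 0.215 in beta-like cells, higher in alpha-like cells of every library. Its companions did not follow. The ratio of Col3a1 to Col1a2 counts was 0.167, 0.135, 0.182 and 0.178 in alpha-like cells, against 1.51, 0.578, 1.25 and 0.899 in fibroblast-like cells. Fibroblast markers summed to between 0.290 and 0.595 in alpha-like cells and to between 0.140 and 0.343 in beta-like cells. Thinned to 2000 counts, 10.1% of alpha-like cells had a Col1a2 count, against 6.35% of macrophage-like cells. By library the alpha-like shares were 3.81%, 14.5%, 6.92% and 9.18%, against 0%, 17.4%, 0% and 0% of macrophage-like cells. The alpha-like share was thus below the macrophage-like one in mutant B and above it in the other libraries, with 63 macrophage-like cells in all. Median depths were 5807.5 and 4315 counts.

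Delta-like cells, the somatostatin producers, had Col25a1 as the member with the most counts, 11.7% of their collagen counts. It stood at 0.575, 0.299, 0.264 and 1.10, so the libraries spread over several fold. The share of cells with a count of any collagen gene was 100% in fibroblast-like cells. Thinned to 2000 counts it was 88.7% in ductal-like and 53.6% in beta-like cells. The other endocrine classes gave 48.4% (delta-like), 44.9% (alpha-like) and 41.0% (PP-like), and macrophage-like cells 43.1%. The 3 macrophage-like libraries spread from 27.3% to 52.2%, and the mean alpha-like, delta-like and PP-like shares lay within that range. The beta-like shares, 56.2%, 46.7%, 47.7% and 63.6%, also reached into it in mutant B and WT A. None of these endocrine classes was thus separated from macrophage-like cells. The part of other cells' RNA in these shares was not tested.

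In some classes the ratio of the chains of a pair followed the number in the title. The ratio of Col4a1 to Col4a2 counts, genes whose starts are printed above, was 1.85, 3.56, 1.89 and 3.26 in fibroblast-like cells. It was 1.91, 3.58, 2.11 and 2.98 in pericyte-like cells, and 1.47, 3.05, 1.57 and 2.72 in endothelial-like cells. In each of these classes both A libraries lay below both B libraries, whatever the genotype. Schwann-like cells, with 2.66, 2.70, 2.42 and 3.36, did not separate by that much. Beta-like cells did not follow, with 7.84, 7.19, 17.0 and 10.3, where A lay above B within both genotypes. The ratio of Col1a1 to Col1a2 counts was higher in the A libraries in fibroblast-like cells, at 1.37, 0.402, 1.13 and 0.462, and in Schwann-like cells, at 0.627, 0.279, 0.945 and 0.194. It did not separate A from B in pericyte-like cells, at 0.034, 0.145, 0.242 and 0.081. What differed between the A and B libraries was not tested.

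Genes that process collagen were described from lists chosen from textbook roles. The clusters were made with these genes, so their contrasts are descriptions. Of 21 tested genes of modification and folding 8 were higher in fibroblast-like than in pericyte-like cells and 0 lower, with a median log2 difference of 0.66 against 0.02 over all genes. They were led by Creb3l1, a transcription factor that drives collagen secretion (3.61 ± 0.42), and Fkbp14, a prolyl isomerase (2.59 ± 0.44). Of 11 genes of processing and cross-linking 6 were higher and 0 lower, with Dcn (5.03 ± 0.41) and Lum (5.70 ± 0.47) first, both of which are markers that named the class. Of 5 degradation genes 1 was higher, the gelatinase Mmp2 (2.33 ± 0.31). Of 6 receptors 1 was higher, the collagen uptake receptor Mrc2 (3.62 ± 0.73), and 2 were lower, the integrin chains Itga1 (-2.16 ± 0.41) and Itgb1 (-0.91 ± 0.21). Of 12 basement membrane partners 2 were higher, Lama2 (2.68 ± 0.41) and Hspg2 (1.74 ± 0.37), and 2 lower, Agrn (-1.96 ± 0.27) and Lama5 (-3.74 ± 0.81).

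Endothelial-like cells had 6 of the 12 basement membrane partners higher than pericyte-like cells and 1 lower. They were led by Hspg2, which encodes perlecan (4.07 ± 0.31), and Nid2, a nidogen that links laminin to type IV collagen (3.02 ± 0.34), and the laminin chain Lama2 was lower (-1.47 ± 0.55). In processing and cross-linking 1 gene was higher, Sparc (0.90 ± 0.28), and 5 were lower, with the lysyl oxidase relatives Loxl2 (-1.70 ± 0.32) and Loxl1 (-3.37 ± 0.73) first. In modification and folding 2 were higher, Plod1 (1.62 ± 0.32) and Colgalt2 (3.46 ± 0.73), and 2 lower, P3h3 (-1.84 ± 0.43) and Plod2 (-1.82 ± 0.43). Of the receptors 0 were higher and 3 lower, led by the collagen receptor Ddr2 (-4.46 ± 0.34) and Itga1 (-1.96 ± 0.36). Of the degradation genes 0 were higher and 3 lower, led by cathepsin K, Ctsk (-3.40 ± 0.49), and the membrane protease Mmp14 (-2.07 ± 0.47). In Schwann-like cells Lama2 (2.76 ± 0.43) and Hspg2 (2.16 ± 0.40) were higher than in pericyte-like cells and no partner was lower, Ddr1 was higher (1.73 ± 0.50), and Ddr2 (-5.67 ± 0.59) and Itgb1 (-1.31 ± 0.20) were the first of 3 lower receptors. Of the other lists 3 genes were lower in Schwann-like cells, P3h3 (-1.89 ± 0.61), Crtap (-0.88 ± 0.30) and Pcolce (-3.46 ± 0.91), and 0 were higher.

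In ductal-like cells 10 of the 12 basement membrane partners were higher than in beta-like cells and 0 lower, with a median of 2.82 against -0.06. Lamb1 (5.0 ± 0.26) and Agrn (4.11 ± 0.24) came first. The degradation list had 3 of 5 higher, led by the protease inhibitors Timp3 (5.16 ± 0.33) and Timp2 (5.47 ± 0.42). In the modification list 6 genes were higher and 8 lower in ductal-like cells, with P4ha3 (4.10 ± 0.46) and Fkbp10 (3.40 ± 0.45) among the higher, and Sec24d (-2.53 ± 0.24) and Mia3 (-2.32 ± 0.26), of the transport of collagen out of the endoplasmic reticulum, among the lower. In processing and cross-linking 5 were higher, led by Sparc (5.96 ± 0.35) and Loxl1 (6.36 ± 0.46), and 2 lower, Bmp1 (-2.67 ± 0.45) and Loxl2 (-2.03 ± 0.36). Of the receptors Itgb1 (1.06 ± 0.19) and Itga1 (2.35 ± 0.52) were higher and Mrc2 (-2.14 ± 0.89) was lower. Between alpha-like and beta-like cells the modification list had 3 genes higher, led by Colgalt2 (2.33 ± 0.38) and Plod2 (1.34 ± 0.33), and 9 lower, led by P4hb, the beta subunit of prolyl hydroxylase (-1.53 ± 0.17), and Creb3l1 (-2.41 ± 0.32). In the other lists Loxl1 (3.22 ± 0.51) and Lamb1 (0.85 ± 0.29) were higher in alpha-like cells, and Bmp1 (-1.97 ± 0.31), Mrc2 (-2.87 ± 0.62), Hspg2 (-2.45 ± 0.32) and Lama5 (-2.00 ± 0.39) lower.

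No collagen gene passed the test between genotypes in any class with all libraries and the filter on low counts, with the genotypes taken from the labels. Sums were tested over all cells, and in beta-like, alpha-like, delta-like, PP-like, endothelial-like and pericyte-like cells. Fibroblast-like, pericyte-like and contractile cells were also tested together, as mesenchymal cells. A further mesenchymal cluster of 35 cells, 15 of them from mutant A, was given none of these names and is not in that sum. edgeR's quasi-likelihood test called 0 genes at an adjusted p under 0.05 in each of the 8 fits, 0% of the genes tested, and DESeq2 also called 0. At an unadjusted p under 0.05 edgeR gave 20 genes higher and 5 lower over all cells, 18 and 3 in beta-like, 12 and 8 in pericyte-like, and 31 and 19 in endothelial-like cells. Alpha-like cells gave 4 and 10, delta-like cells 3 and 6, PP-like cells 6 and 6, and mesenchymal cells 14 and 7. Calls appeared when single libraries were left out, up to 101 genes in endothelial-like, 63 in mesenchymal and 56 over all cells, each without mutant B. Without 1 library a genotype is a single library, which is then assumed to vary like the other genotype's libraries. Members called were Col1a1 (-2.65) and Col1a2 (-2.62) over all cells and Col6a6 in mesenchymal cells without mutant B, and Col1a1 (3.68) in endothelial-like cells without mutant A. With no filter on low counts Col1a1 was also called in endothelial-like cells, at 2.83 ± 0.70 (edgeR adjusted p = 0.0472). Over all cells, fewer cells of a type and less RNA per cell cannot be told apart.

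The members tested had median log2 differences of 0.18 over all cells (43 members, all genes 0.04), 0.17 in beta-like cells (37, all genes -0.01) and 0.09 in pericyte-like cells (16, all genes 0.00). They were 0.16 in endothelial-like cells (11 members, all genes 0.02), 0.24 in alpha-like cells (14, all genes 0.01), 0.16 in delta-like cells (11, all genes 0.02) and -0.28 in mesenchymal cells (24, all genes 0.01). The 1 member with an unadjusted p under 0.05 by edgeR was Col9a3 in pericyte-like cells, at 1.80 ± 0.73 (unadjusted p = 0.0323, edgeR adjusted p = 1.00). Col9a3, a chain of type IX collagen, stood there at 0.803 and 0.768 in the libraries labelled mutant, from 14 and 24 counts, and at 0.231 and 0.223 in those labelled WT, from 4 and 5 counts. The 2 groups did not overlap, but the share of all genes that separate likewise was not counted. The overlap of Col9a3 with Tcfl5 given above holds here too.

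Col6a3 in beta-like cells was lower in the libraries labelled mutant within both numbers. The log2 ratio of mutant over WT was -0.53 within A and -1.13 within B, and that of Col6a6 was -0.39 and -0.68. Between genotypes Col6a3 stood at 0.736 and 0.751 in mutant libraries and at 1.07 and 1.64 in WT libraries, so the groups did not overlap. The share of all genes that separate likewise was not counted. The fitted difference of -0.80 ± 0.59 was small beside its error (edgeR adjusted p = 1.00). Most beta-like cells of each library lay in a cluster of that library. Col5a2 (1.17 ± 0.76) and Col11a1 (0.88 ± 0.72) were the other members of smallest p in beta-like cells, and Col5a2 ranged from -0.53 to 1.90 as single libraries were left out.

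Most members had log2 ratios of opposite sign within A and within B. The share of all genes with opposite signs was not counted, so this is not read as particular to collagen genes. In beta-like cells 27 members had at least 10 counts in every library: 4 were higher in the mutant within both numbers, 3 lower within both, and 20 opposite, with median log2 ratios of 0.40 within A and -0.34 within B. In pericyte-like cells 11 of 12 were opposite, with medians of -0.33 and 0.37, and in Schwann-like cells 8 of 11, with -0.95 and 0.35. In endothelial-like cells 5 of 8 were opposite, and over all cells 34 of 43. Sin3a itself was opposite within A and B, as given above. The part of this in the members' values was not tested.

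**Figure D5:**
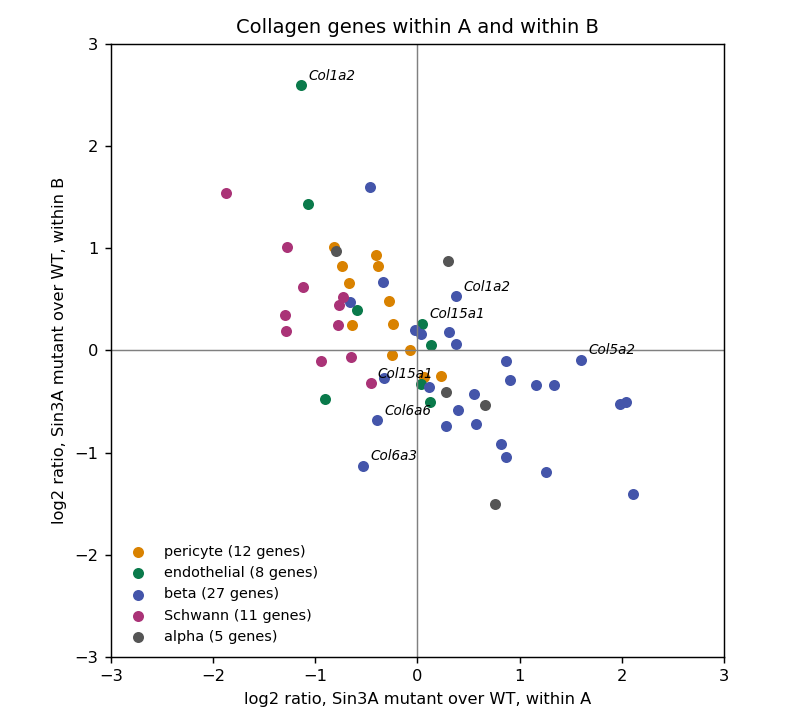
Log2 ratio of the library labelled mutant over the library labelled WT, within A on the horizontal and within B on the vertical axis, for collagen genes that reached 10 counts in all 4 libraries of a class. In beta-like cells 20 of 27 genes lie in the quadrants of opposite direction, and the share over all genes was not counted.

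Single values show the size of the spread. Endothelial-like Col1a2, at 1.79 ± 0.96 in the fit, had log2 ratios of -1.14 within A and 2.60 within B, and the fit gave -1.09 without mutant B. Endothelial-like Col6a2 stood at 1.66 ± 0.90, and Col5a2 at -0.63 ± 0.48 with ratios of -0.91 and -0.47. In pericyte-like cells Col25a1 stood at 0.83 ± 0.70 and Col6a1 at 0.30 ± 0.54, the last with ratios of -0.82 and 1.02. In that class most cells of A lay in one cluster, with 31 and 27 cells, and most of B in others. Alpha-like cells had Col6a3 at -1.08 ± 0.80, Col25a1 at 1.00 ± 0.82 and Col27a1 at -0.72 ± 0.70. Delta-like cells had Col19a1 at -0.79 ± 0.90, Col25a1 at -0.56 ± 0.71 and Col15a1 at 0.64 ± 0.95, and PP-like cells Col9a2 at 0.22 ± 0.81 and Col1a2 at 0.12 ± 0.89.

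In mesenchymal cells together Col12a1 stood at -1.16 ± 0.74, Col6a6 at -1.13 ± 0.78 and Col6a3 at -0.85 ± 0.64. Mutant A had only 6 fibroblast-like cells in that sum, beside 44 pericyte-like ones, and mutant B 265 and 142. Without mutant B, which leaves 1 library labelled mutant, Col6a6 was called lower, at -2.97 (edgeR adjusted p = 0.0121). Over all cells Col11a1 stood at 0.73 ± 0.60, Col17a1 at 0.87 ± 0.76 and Col14a1 at 0.71 ± 0.73. The 5 pathway lists held no called gene between genotypes in any of these fits.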

How the data were processed

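The deposited values are whole-number counts per gene and cell barcode, not normalized by the authors. Per the labels' protocols, inDrop capture was followed by CEL-Seq linear amplification and NextSeq500 sequencing, and GRCm38 and GRCh38 are the builds in the submitters' processing notes. Aligner, annotation, collapsing of molecular barcodes and selection of barcodes are not stated there. The 2 features not marked as mouse, with 6 counts, were left out.

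Barcodes with at least 500 counts, 250 genes and at most 25% mitochondrial counts were kept (6566 of 6948), and Scrublet removed 40 doublets (0.61%). With scanpy 1.11.5, 2000 variable genes without collagens, 30 principal components and 15 neighbours gave Leiden clusters (resolution 1), named from marker lists. Counts were summed per library and class and tested with edgeR 4.0.16 (quasi-likelihood F test, TMM, edgeR's filter on low counts, Benjamini-Hochberg over all genes). DESeq2 1.42.0 was an alternative. The class fit used sums of at least 10 cells with library as a term. Its filter on low counts went by class, so a member high in a single class could be tested through that class. The genotype fits used classes that reached 20 cells in all 4 libraries. The SE is the absolute log2 difference divided by the square root of F. Both scripts were tested on simulated data. Classes were clustered on other genes of the same cells, so class contrasts describe these cells. Contractile cells could not be fitted, with 10 cells in only 2 libraries. Shares of cells were taken after thinning to 2000 counts, and shallower cells (75 of 411 fibroblast-like, 335 of 2976 beta-like) were left out. Bounds against 0 use a floor of 3 counts, for counting error only.

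Libraries of one label differed by more than counting error (chi-square per degree of freedom 189 for mutant, 87.9 for WT). Named were all members called between genotypes or else the 3 of smallest p per class, up to 10 members per direction between classes, and the 2 pathway genes of smallest p per list and direction. Members, lists and marker genes were chosen with earlier results of these data known. Gene overlaps come from GENCODE M21 on GRCm38.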

Additional observations from a re-analysis of the deposited data

Results flagged for a closer look

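Col15a1 had log2 ratios of opposite sign in 2 cell classes, and was called between the genotypes in neither: the endothelial-like fit gave 0.24 ± 0.41 (edgeR adjusted p = 1.00), and Schwann-like cells had no fit between genotypes. In endothelial-like cells the log2 ratio of the library labelled mutant over the library labelled WT was 0.043 within A and 0.26 within B. In Schwann-like cells it was -0.46 within A and -0.32 within B, from 29, 46, 32 and 57 counts in the order mutant A, mutant B, WT A, WT B. The difference between the classes was not tested. It was found among 75 pairs of classes compared gene by gene for such opposite directions.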

How the results depend on the processing

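With 2 libraries per label, 1 library decided many values. With no filter on low counts, 23 genes were called between genotypes in endothelial-like, 4 in pericyte-like and 1 in mesenchymal cells, against 0 with it. Title numbers were entered as a replicate block, although only shared by the labels (correlation of same-numbered deviations 0.04 in beta-like to 0.45 in pericyte-like cells, from 2 pairs). The block gave 1 call in pericyte-like cells and 0 elsewhere, and turned PP-like Col1a2 to -0.33. Leaving out 1 library gave 0 to 56 called genes over all cells, 0 to 1 in alpha-like, 0 to 5 in beta-like, 0 to 13 in delta-like, 1 to 101 in endothelial-like, 0 to 63 in mesenchymal, 1 to 5 in pericyte-like and 0 to 6 in PP-like cells. The named log2 differences then spanned -0.56 to 0.81 for pericyte-like Col6a1, -1.09 to 2.66 for endothelial-like Col1a2, -0.53 to 1.90 for beta-like Col5a2, -1.37 to 0.58 for alpha-like Col27a1, -1.91 to 1.78 for delta-like Col15a1 and -1.32 to 0.74 for delta-like Col25a1. PP-like Col1a2 spanned -2.16 to 0.99, PP-like Col9a2 -0.066 to 0.65, mesenchymal Col12a1 -2.33 to 0.0010, and over all cells Col14a1 -1.51 to 1.52 and Col17a1 -0.18 to 1.42. Between classes, members higher in alpha-like than in beta-like cells numbered 1 to 2, those higher in ductal-like cells 11 to 18, and those lower in fibroblast-like than in pericyte-like cells 2 to 4. Without the library term these were 0 for alpha-like and 2 for fibroblast-like cells. No named class difference changed sign, 15 values lost their call with a library left out and 273 did not, and under other alternatives 10 did and 422 did not. The collagen share of contractile cells was 2.10% with collagens kept in the clustering, 2.09% at resolution 2 and 2.08% with doublets kept, against 2.14%. Unthinned, the share of cells with a collagen count was 99.4% in pericyte-like, 98.4% in endothelial-like, 97.3% in Schwann-like, 91.9% in ductal-like, 83.7% in beta-like, 73.5% in alpha-like, 81.3% in delta-like, 71.9% in PP-like, 59.2% in macrophage-like and 66.7% in acinar-like cells. Causes were not tested, apart from thinning, which lowers counts by construction.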
